A study of Mus musculus with 6 samples.

Results

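The 10 genes followed here in mouse skin are grouped as feedback targets of Wnt signalling. Their products mostly act back on the pathway inside the cell or at its surface. The genes are Axin2, Nkd1, Nkd2, Notum, Sp5, Rnf43, Znrf3, Lgr5, Lgr4 and Apcdd1. They were chosen by symbol, and all 10 were found among the 23412 genes of the table. RNA came from ventral dermis at 3 weeks of age, on a mixed CD1 and C57BL/6 background. The 3 mutant mice had the genotype HoxB6CreERT/+; R26-YFP/+; CatnbΔex3/+, in which a tamoxifen-dependent Cre recombinase expressed from HoxB6 removes exon 3 of 1 copy of the beta-catenin gene and so stabilises the protein. The 3 littermate controls had the Cre and the yellow fluorescent reporter, HoxB6CreERT/+; R26-YFP/+, without the floxed allele. Mutants and controls alike were exposed to tamoxifen at embryonic day 16.5 through the mother. The share of dermal cells that lost the exon is not given in the sources used here.

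In canonical Wnt signalling a Wnt ligand stops the destruction complex from marking beta-catenin for degradation, and beta-catenin then joins TCF/LEF proteins on DNA and switches on target genes. Several targets encode brakes on the same pathway, so their RNA is widely used as a readout of it. In skin these genes are known from hair follicles and their dermal papillae as well as from the dermis itself.

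Sequence is shown for the 2 genes that bear most directly on a readout of beta-catenin: Sp5, which had the largest ratio between the group means among the 10, and Axin2, the most widely used reporter of the pathway. RefSeq (GRCm38.p6) windows of 300 bases, from 250 bases before a transcription start to 50 bases after it, were taken for 6 of the 10 genes at 7 starts. No window was at hand for Notum, Znrf3 and Lgr5. Apcdd1 was left out of the search, so whether its window holds a match is not given. Each window was searched on both strands for the TCF/LEF core CTTTGNN with each N read as A or T, which gives 4 spellings of 7 bases. The Sp5 window lies at chr2:70474673-70474972 on the plus strand and the Axin2 window at chr11:108920099-108920398, also on the plus strand. Both are printed 5′ to 3′ with matches in capitals.
Sp5: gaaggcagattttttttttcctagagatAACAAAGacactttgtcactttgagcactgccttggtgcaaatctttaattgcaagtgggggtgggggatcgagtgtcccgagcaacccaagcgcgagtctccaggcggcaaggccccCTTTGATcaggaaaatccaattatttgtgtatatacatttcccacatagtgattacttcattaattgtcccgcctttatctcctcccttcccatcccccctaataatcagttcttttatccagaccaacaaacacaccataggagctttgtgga
Axin2: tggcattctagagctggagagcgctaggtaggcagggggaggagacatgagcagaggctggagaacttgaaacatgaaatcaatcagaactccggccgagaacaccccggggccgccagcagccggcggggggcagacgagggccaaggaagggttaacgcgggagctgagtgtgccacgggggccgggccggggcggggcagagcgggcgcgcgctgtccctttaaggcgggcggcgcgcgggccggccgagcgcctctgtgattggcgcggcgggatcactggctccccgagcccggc
The Sp5 window holds 2 matches. CTTTGAT lies on the sense strand from -104 to -98, and CTTTGTT lies on the antisense strand from -222 to -216 and so reads as its reverse complement in capitals above, with the base at the start counted as 0. No match was found in the Axin2 window, which is 70.0% G and C against 45.0% for Sp5, nor in the windows of Lgr4, Nkd1, Nkd2 and Rnf43. The Nkd1 window begins at 88527383, inside the gene, which starts at 88521354. Its last 50 bases do not open an annotated GENCODE transcript. Of 32851 promoter windows of the same length, 16.9% held at least 1 match and 1.94% held 2 or more. CTTTGAT alone was in 3.73% of them and CTTTGTT in 5.85%. A match is a string of letters and not a bound site, and these windows leave out introns and distant enhancers.

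The table gives FPKM, fragments assigned to a gene scaled by its length and by library depth, and the division by length allows levels of different genes to be set side by side. Whole reads per gene could be worked back from the steps of the FPKM values, and the libraries held 7799565 to 9675359 gene reads in controls and 11839144 to 13478910 in mutants. Control 2 had the lowest and mutant 1 the highest library-wide factor (0.885 and 1.18 by median-of-ratios, which follows the middle gene of each library), and control 2 was the lowest control for 7 and mutant 1 the highest mutant for 7 of the 9 tested genes in this group. Controls 1 and 2 had 55.5 and 66.2 FPKM of Xist and at most 1 read of each of 4 Y-linked genes, whereas control 3 and every mutant expressed the Y-linked genes, so library sex is unbalanced between the groups. Mutant 2 carried 6.47 FPKM of Xist beside its Y-linked reads. The engineered gene, Ctnnb1, was at 163 to 201 FPKM in controls and 136 to 193 in mutants, and a value for the whole gene does not show the loss of an exon. Hoxb6, the gene for which the Cre line is named, was at 1.76 to 3.64 and 1.98 to 2.40 FPKM. Markers of dermal fibroblasts, all 10 of them in the table, summed to 5142, 2737 and 10512 FPKM in controls 1, 2 and 3. In mutants 1, 2 and 3 they summed to 13749, 9541 and 9584. These sums overlapped, since control 3, the control with Y-linked expression, was above mutants 2 and 3. All 10 had higher means on the log2 scale in mutants (median log2 difference 0.97), and 0 were called. Every mutant was above every control for 7 of them as deposited and for 6 after median-of-ratios scaling. Of all tested genes, 13.0% and 11.9% were higher in every mutant on these 2 scales. Markers of macrophages and monocytes (9 in the table) summed to 39.9 to 74.1 FPKM in controls and 108 to 174 in mutants. All 9 were above 0 (median log2 difference 0.98), and 8 were higher in every mutant before and after scaling, where 13.0% and 11.9% of all tested genes were. The Fc receptor chain Fcer1g was the 1 called (adjusted p = 0.0242, limma), a gene singled out after its values were seen. Of all tested genes 0.143% were called higher. Sums of adipocyte markers (7 of 7) ran from 347 to 390 FPKM in controls and 400 to 620 in mutants. Those of vascular endothelium (8 of 8) ran from 33.2 to 41.4 and 43.2 to 54.3, with 0 genes called in either list. In each of these 2 lists 3 genes were higher in every mutant as deposited and 2 after scaling. The sums given here are of deposited FPKM and were not divided by the library-wide factors. After such a division the groups would overlap in the adipocyte and in the endothelial sums, so their separation holds on the deposited scale only. Epithelium remained in the samples. Markers of hair follicle epithelium (12 of 12 in the table) summed to 762 to 897 FPKM in controls and 783 to 1080 in mutants, those of hair shaft (9 of 9) to 1925 to 3303 and 923 to 2574, of epidermal keratinocytes (8 of 9) to 634 to 772 and 694 to 800, and of dermal papilla (10 of 10) to 68.4 to 86.2 and 76.0 to 96.1. The sums of these 4 lists overlapped between the groups, as did those of skeletal muscle, smooth muscle and pericytes, Schwann cells and melanocytes. Of the 9 hair shaft markers, 0 had a higher mean on the log2 scale in mutants (median log2 difference -0.61). None of the 9 separated the groups on either scale, and 0 were called. No marker of these lists that is in the table was at 0 in all libraries. The part of these cell types in the results below was not tested. In whole dermis a change in the number of cells and a change in RNA per cell cannot be told apart.

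Of the 10 genes, 9 averaged 1 FPKM or more across the 6 libraries and entered the test across 12560 genes. None of the 9 passed it (limma on log2(FPKM + 1) with Benjamini-Hochberg adjustment, threshold 0.05), and 0 of the 9 had an unadjusted p under 0.05. Among all tested genes 18, or 0.143%, passed, all of them higher in mutants, while 10.5% were higher and 0.748% lower at an unadjusted p under 0.05. After median-of-ratios scaling 4 of the 9 had an unadjusted p under 0.05 and still 0 were called: Apcdd1 was higher, where 10.1% of all tested genes were, and Nkd2, Rnf43 and Znrf3 were lower, where 6.49% were. The same 4 had an unadjusted p under 0.05 in limma-voom on the recovered reads (9.21% of all tested genes higher and 6.98% lower). On the deposited values 5 of the 9 were above and 4 below the median of all tested genes, which was 0.09. The median log2 difference of the 9, mutant minus control, was 0.20. The 9 genes did not share a direction: Axin2, Nkd1, Notum, Lgr5 and Apcdd1 had higher means in mutants, Nkd2, Rnf43 and Znrf3 had lower ones, and Lgr4 was level. Sp5 lay below 1 FPKM and is described from its reads.

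**Figure D1:**
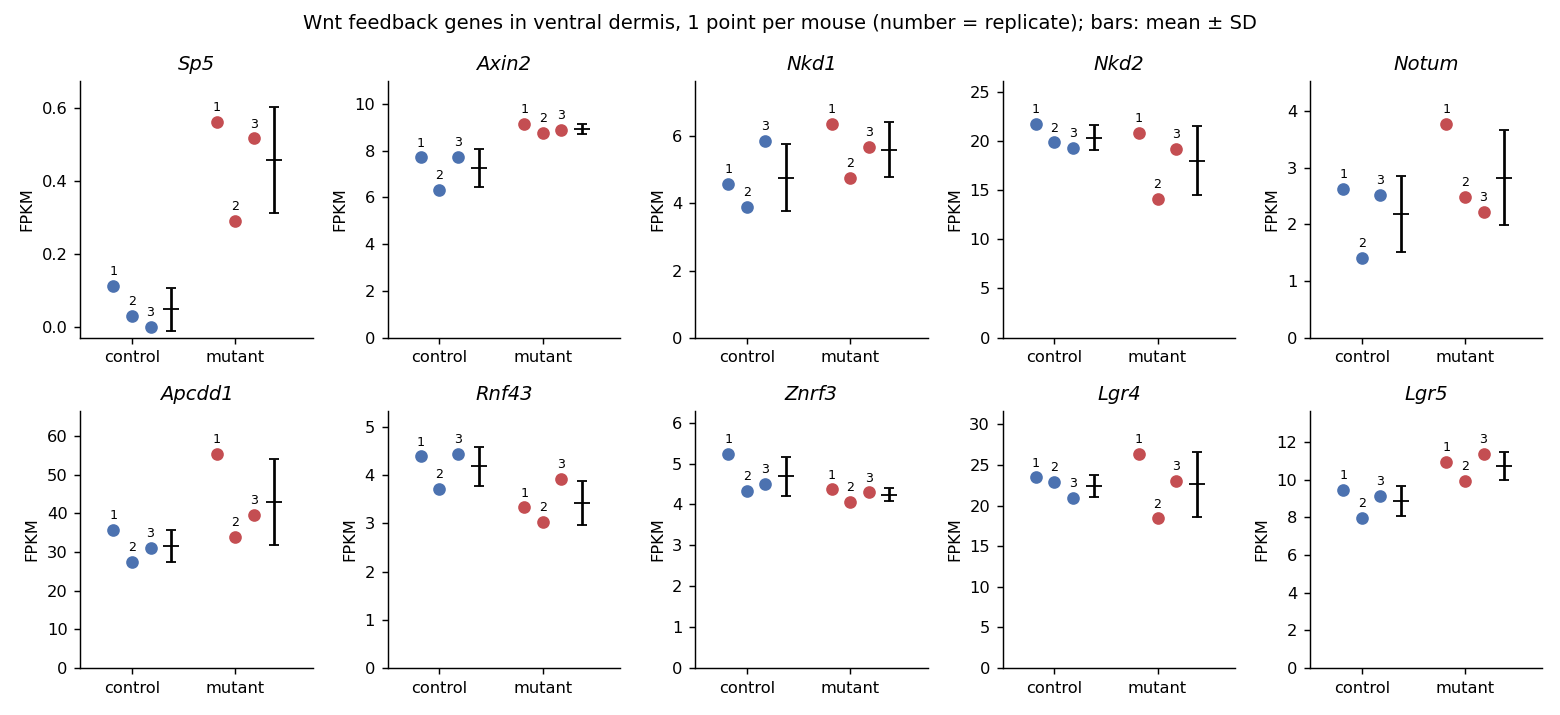
FPKM of each of the 10 genes (vertical axes, linear) in controls (blue) and mutants (red), 1 point per mouse with its replicate number, and the mean ± SD of each group beside the points. Sp5, Axin2 and Lgr5 are the genes in which every mutant lies above every control.

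Among the brakes inside the nucleus, Sp5, a zinc finger factor of the Sp family that binds and can repress Wnt target genes, had 4, 1 and 0 reads in the 3 controls and 23, 13 and 23 reads in the 3 mutants, in replicate order as for every gene below. These correspond to 0.112, 0.0301 and 0 FPKM in the controls and 0.560, 0.290 and 0.515 in mutants. Every mutant library exceeded every control. For control 3, with none detected, an upper limit of 3 expected reads, or 0.0957 FPKM, was taken, which bounds the rate and not the reads counted. Over the groups 59 reads stood against 5, a rate 9.08-fold higher in mutants (95% exact interval 3.68 to 29.0) once depth was taken into account. That interval covers counting error only and not the spread between mice. In the limma fit with no filter on low FPKM the log2 difference was 0.47 (SE 0.08, adjusted p = 0.137), a scale on which values far below 1 FPKM are compressed. In a limma-voom fit on the recovered reads of all 21592 genes seen in any library, chosen after the data were seen, Sp5 was higher by 3.18 on the log2 scale (SE 0.63, adjusted p = 0.0280), where 1.39% of genes passed. The call was lost without control 2 (adjusted p = 0.0989), control 3 (0.0844), mutant 1 (0.120) or mutant 2 (0.0539), with library sex as a covariate (0.228) and with a replicate block (0.0651), while the log2 difference stayed between 2.35 and 4.80 in these fits and those without control 1 or mutant 3. Sp5 is a gene with a short span (chromosome 2, 70474923 to 70477729), and no other annotated gene overlaps it.

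Axin2 encodes the scaffold of the destruction complex that beta-catenin itself induces (chromosome 11, 108920349 to 108950783). It stood at 7.71, 6.31 and 7.72 FPKM in controls and at 9.14, 8.75 and 8.90 in mutants, from 426 to 559 reads in each control and 762 to 806 in each mutant. The mutants were close together and all above the controls, with control 2 well below the other controls. The means were 7.24 ± 0.81 and 8.93 ± 0.20 FPKM (SD, n = 3 each), a log2 difference of 0.27 (SE 0.13, 95% interval -0.01 to 0.55, adjusted p = 0.461). After median-of-ratios scaling the groups touched: control 3 was at 7.76 and mutant 1 at 7.73, and the log2 difference was 0.17 (adjusted p = 0.374). With 3 mice in each group, an exact two-sided permutation test of 1 gene cannot give a p below 0.1, and Axin2 was at that limit on the deposited scale. An annotated antisense gene, Gm11670, shares up to 105 bases of exon with Axin2, and no source used here says whether reads were counted by strand.

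The naked cuticle proteins, which bind Dishevelled in the cytoplasm and at membranes, had group means that differed in opposite directions, neither past the test. Nkd1 (chromosome 8, 88521354 to 88594884) was at 4.57, 3.89 and 5.85 FPKM in the controls and 6.37, 4.75 and 5.69 in mutants. The groups overlapped, since control 3 exceeded mutants 2 and 3 (log2 difference 0.20, SE 0.16, adjusted p = 0.732). The difference was 0.089 without control 2, 0.12 without mutant 1 and 0.33 without control 3. Nkd2 (chromosome 13, 73818534 to 73847631) was more abundant, at 21.7, 19.8 and 19.3 FPKM in the controls and 20.8, 14.1 and 19.2 in mutants. Its groups overlapped as deposited, with mutant 2 far below the other 5 libraries (log2 difference -0.18, SE 0.17, adjusted p = 0.788). Without mutant 2 the difference was -0.021, and without mutant 1 it was -0.29. After scaling, all 3 mutants (17.6, 15.1 and 18.3) were below all 3 controls (21.3, 22.4 and 19.4), with a log2 difference of -0.30 (adjusted p = 0.218). The ratio of Nkd1 to Nkd2 within a library, from which any library-wide factor drops out, was 0.210, 0.196 and 0.303 in controls and 0.307, 0.338 and 0.297 in mutants, so control 3 lay among the mutants.

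At the cell surface, Rnf43 and Znrf3 encode related ubiquitin ligases that remove Frizzled receptors from the membrane. Rnf43 (chromosome 11, 87662722 to 87735539) was at 4.39, 3.71 and 4.44 FPKM in the controls and 3.33, 3.02 and 3.92 in mutants. Only mutant 3 against control 2 kept the groups from separating (means 4.18 ± 0.40 and 3.43 ± 0.46 FPKM, SD, n = 3 each, log2 difference -0.23, SE 0.13, adjusted p = 0.575). Znrf3 (chromosome 11, 5276324 to 5444847) was at 5.23, 4.33 and 4.50 FPKM in the controls and 4.37, 4.06 and 4.29 in mutants. Control 2 was below mutant 1 (log2 difference -0.12, SE 0.12, adjusted p = 0.808), and without control 1 the difference was -0.048. After scaling, every mutant was below every control for each ligase, with log2 differences of -0.32 for Rnf43 (adjusted p = 0.197) and -0.21 for Znrf3 (adjusted p = 0.277). The ratio of Rnf43 to Znrf3 overlapped between the groups, at 0.838 to 0.987 in controls and 0.745 to 0.914 in mutants.

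Lgr4 and Lgr5 encode R-spondin receptors, which hold those ligases in check and so raise the response to Wnt, and Lgr5 marks stem cells of the hair follicle. Lgr5 (chromosome 10, 115450311 to 115587780) was at 9.46, 7.96 and 9.13 FPKM in the controls and 10.96, 9.91 and 11.4 in mutants. Every mutant was above every control, by a small margin between mutant 2 and control 1 (means 8.85 ± 0.79 and 10.7 ± 0.75 FPKM, SD, n = 3 each, log2 difference 0.25, SE 0.13, adjusted p = 0.516). After scaling mutant 1, at 9.25, was just under control 1, at 9.28. Lgr4 (chromosome 2, 109917647 to 110014257) was at 23.5, 22.9 and 20.9 FPKM in the controls and 26.4, 18.4 and 23.1 in mutants, and its group means differed by less than the spread in either group (log2 difference 0.00, 95% interval -0.37 to 0.37, adjusted p = 0.999). The ratio of Lgr5 to Lgr4 was 0.403, 0.348 and 0.437 in controls and 0.416, 0.538 and 0.492 in mutants, with mutant 1 among the controls.

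Of the products that act outside the cell or on its surface, Notum is a secreted esterase that takes the lipid off Wnt proteins (chromosome 11, 120653788 to 120661175). It was at 2.62, 1.41 and 2.52 FPKM in the controls and 3.77, 2.48 and 2.21 in mutants, from 45 to 149 reads. The groups overlapped widely (log2 difference 0.27, SE 0.20, adjusted p = 0.722). The difference was 0.077 without control 2 and 0.096 without mutant 1. An annotated antisense gene, Notumos, shares up to 612 bases of exon with it and another, Myadml2os, up to 109, which leaves the same doubt on strand. Apcdd1, a membrane glycoprotein that binds Wnt and its co-receptor and is active in hair follicles, was the most abundant of the 10 (chromosome 18, 62922231 to 62961179). It was at 35.8, 27.5 and 31.1 FPKM in the controls and 55.4, 33.9 and 39.7 in mutants. Mutant 1 stood far above the rest, and mutant 2 was below control 1 (means 31.4 ± 4.15 and 43.0 ± 11.1 FPKM, SD, n = 3 each, log2 difference 0.42, SE 0.21, adjusted p = 0.509). After scaling, the 3 mutants (46.8, 36.5 and 37.9) were all above the 3 controls (35.1, 31.1 and 31.3), with a log2 difference of 0.30 (adjusted p = 0.268). Without mutant 1 the difference on the deposited scale was 0.22, and without both control 2 and mutant 1 it was 0.13.

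Counts of genes whose groups did not overlap differed between the scalings. On the deposited scale 2 of the 9 tested genes, Axin2 and Lgr5, were higher in every mutant, where 13.0% of all tested genes were, and 0 were lower in every mutant, where 2.65% were. On the scaled values 1 of the 9, Apcdd1, was higher (11.9% of all tested genes) and 3, Nkd2, Rnf43 and Znrf3, were lower (11.7%). Median-of-ratios scaling moved the median of all tested genes from 0.09 to -0.01, so each gene is also given relative to that median. Axin2, Lgr5 and Apcdd1 were above it, by 0.19, 0.17 and 0.33, and Nkd2, Rnf43 and Znrf3 below it, by -0.27, -0.32 and -0.20. For these 6 genes the sign relative to the median was the same in each of the 18 alternatives in which the gene was tested (a filter at 5 FPKM leaves out Rnf43 and Znrf3).

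**Figure D2:**
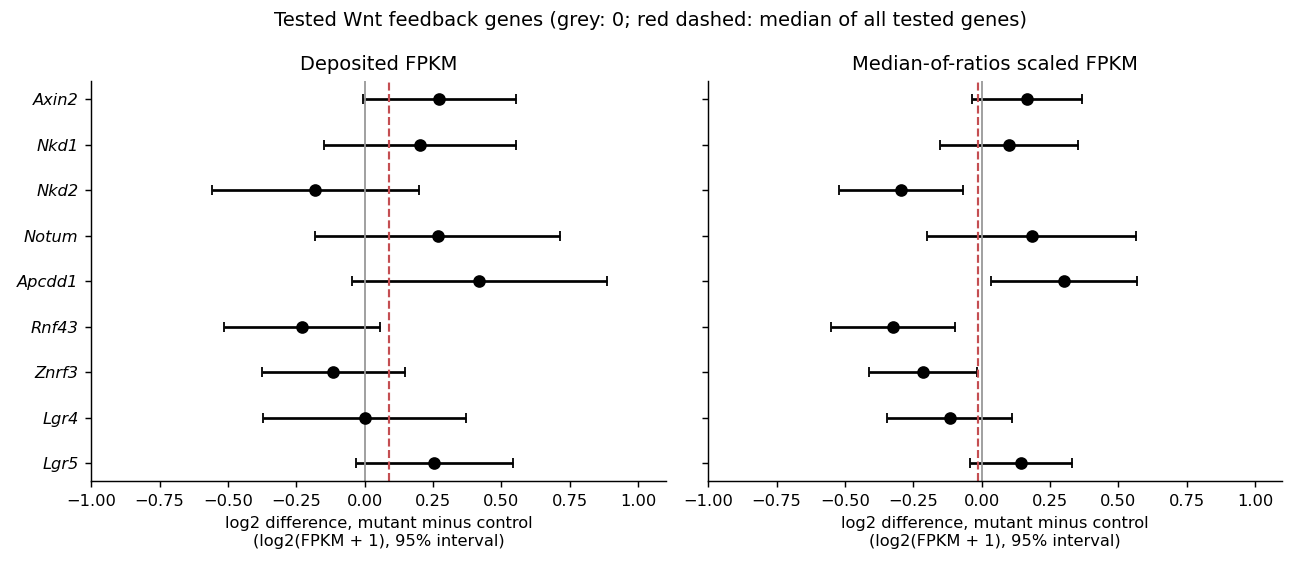
Log2 difference, mutant minus control, with its 95% interval for the 9 tested genes on deposited FPKM (left) and median-of-ratios scaled FPKM (right). The grey line is 0 and the red dashed line the median of all tested genes, 0.09 on the left and -0.01 on the right. Most intervals include 0, and on the right those of Apcdd1, Nkd2, Rnf43 and Znrf3 do not.

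**Figure D3:**
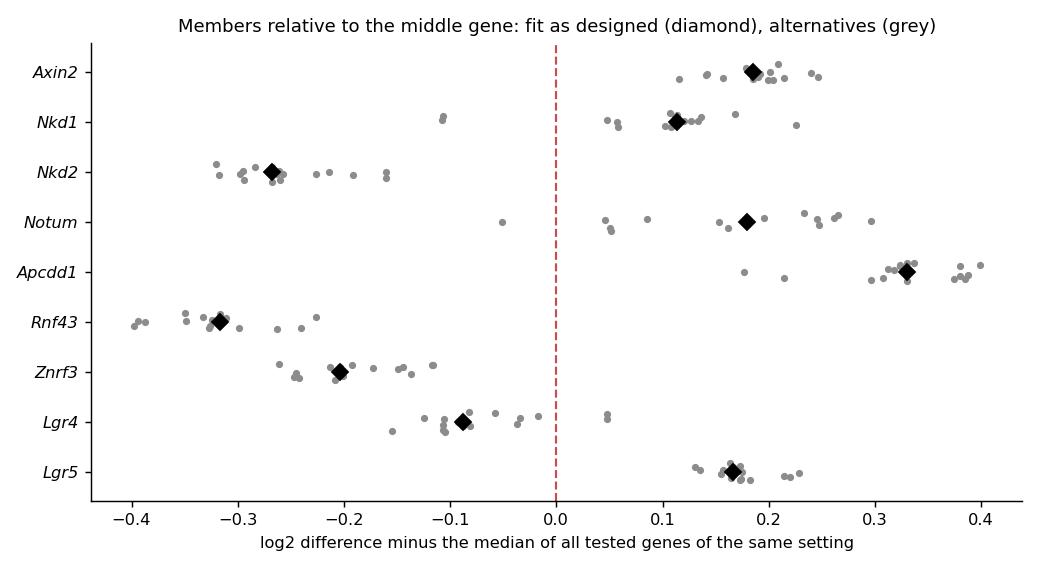
Log2 difference of each tested gene minus the median of all tested genes of the same setting, for the fit as designed (diamonds) and the alternatives (grey points). The alternative of limma-voom with no filter is not plotted. Axin2, Lgr5 and Apcdd1 stay right of the dashed line at 0 and Nkd2, Rnf43 and Znrf3 left of it, while Nkd1, Notum and Lgr4 have points on each side.

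Axin2 was also set against each ligase within a library, a pairing chosen after the values were seen. Axin2 FPKM was 1.76, 1.70 and 1.74 times that of Rnf43 in controls and 2.75, 2.90 and 2.27 times in mutants. The controls were nearly identical, and every mutant was above them (means 1.73 ± 0.03 and 2.64 ± 0.33, SD, n = 3 each). The ratio of Axin2 to Znrf3 was 1.47, 1.46 and 1.71 in controls and 2.09, 2.16 and 2.07 in mutants, again with every mutant above every control. Since the pairs were picked for values already seen, these ratios are a description with no test.

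**Figure D4:**
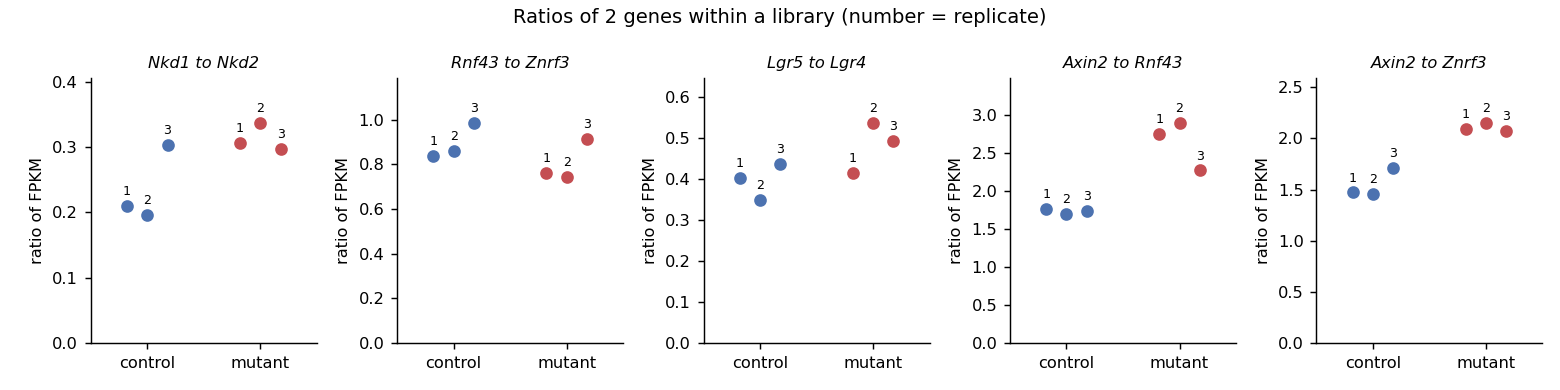
Ratio of FPKM of 2 genes within each library (vertical axes, linear from 0) for controls (blue) and mutants (red), with replicate numbers. The ratios of Axin2 to Rnf43 and to Znrf3 are at most 1.76 and 1.71 in controls and at least 2.27 and 2.07 in mutants. These pairs were picked for values already seen, so their separation is a description with no test. The 3 ratios of related genes overlap.

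Control 3 is the control that shares Y-linked expression with the mutants. Against it, all 3 mutants were higher in Sp5, Axin2, Lgr5 and Apcdd1 and lower in Rnf43 and Znrf3. Control 3 lay inside the range of the mutants for Nkd1, Nkd2, Notum and Lgr4. With library sex as a covariate the log2 differences were 0.19 for Axin2, 0.21 for Lgr5, 0.43 for Apcdd1, -0.30 for Rnf43 and -0.061 for Nkd1, and none of the 9 passed. That fit rests on control 3 alone for the comparison with the mutants.

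The 10 genes covered a wide range of levels. Averaged over the 6 libraries, Apcdd1 was highest at 37.2 FPKM, followed by Lgr4 at 22.5 and Nkd2 at 19.1. Lgr5 at 9.80 and Axin2 at 8.09 came next, then Nkd1 at 5.19, Znrf3 at 4.46, Rnf43 at 3.80, Notum at 2.50 and Sp5 at 0.251. The libraries of Apcdd1 did not overlap with those of Lgr4, nor those of Nkd2 with Lgr5 or those of Notum with Sp5. All other neighbours in this order overlapped when values were pooled over the 6 libraries. Within every library, however, Lgr4 was above Nkd2, Lgr5 above Axin2, Axin2 above Nkd1 and Znrf3 above Rnf43. Only the order of Nkd1 and Znrf3 and that of Rnf43 and Notum changed between libraries.

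The rest of the pathway was described from 8 lists with 114 genes, of which 86 were tested. Of these, 1 gene was called higher and 0 lower. Of the 86, 15 (17.4%) were higher and 3 (3.49%) lower in every mutant on the deposited scale, against 13.0% and 2.65% of all tested genes. After scaling 14 (16.3%) were higher and 15 (17.4%) lower, against 11.9% and 11.7%. List medians are to be read against 0.09 for all tested genes.

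Among genes of the destruction complex and beta-catenin, 0 of 11 were called (median 0.05). The scaffold Apc was at 11.6 ± 0.42 FPKM in the controls and 10.8 ± 0.56 in mutants, Gsk3b, its kinase, at 13.6 ± 0.40 and 12.7 ± 0.86, and the ubiquitin ligase subunit Btrc at 1.11 ± 0.19 and 1.34 ± 0.30. Of 13 TCF/LEF factors and co-factors 0 were called (median -0.05). Lef1, which pairs with beta-catenin on DNA and is itself a known target, was at 18.1, 17.1 and 17.4 FPKM in the controls and 14.6, 12.1 and 15.5 in mutants. Every mutant was below every control before and after scaling (log2 difference -0.31, SE 0.14, adjusted p = 0.464). Bcl9, a co-activator, was at 2.83 ± 0.58 and 2.01 ± 0.06 FPKM, and the co-repressor Tle1 at 2.89 ± 0.38 and 3.40 ± 0.28.

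The secreted Wnt inhibitors had the highest median of the 8 lists, 0.29, with 0 of 8 called. Dkk2 was at 3.63 ± 1.07 FPKM in the controls and 8.03 ± 2.03 in mutants (adjusted p = 0.105, limma), Dkk3 at 6.53 ± 1.16 and 9.08 ± 0.90, and Wif1, which binds Wnt ligands, at 16.7 ± 4.20 and 24.8 ± 2.74. Each of these 3, named for having the smallest p in the list, was higher in every mutant on either scale. They make up 37.5% of the tested inhibitors, where 13.0% and 11.9% of all tested genes were higher on the deposited and scaled values. The other tested inhibitors overlapped on both scales, with log2 differences from -0.22 (Frzb) to 0.30 (Sostdc1). Of 9 other intracellular and membrane modulators 0 were called (median 0.12): the Dishevelled-binding Dact1 was at 1.37 ± 0.42 and 2.48 ± 0.29 FPKM, the membrane protease Trabd2b at 1.99 ± 0.23 and 2.47 ± 0.11, and Shisa2 at 8.95 ± 0.53 and 10.04 ± 1.60. Among the R-spondins and Lgr6, 0 of 3 were called (median 0.18), and Rspo1, a ligand of the Lgr receptors, was at 2.30 ± 0.30 and 3.26 ± 0.43 FPKM, Rspo3 at 2.24 ± 0.28 and 2.45 ± 0.39, and Lgr6 at 2.39 ± 0.59 and 2.80 ± 0.18.

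Of 14 Wnt receptors 0 were called (median 0.05), with Fzd2 at 6.06 ± 1.34 and 8.16 ± 0.95 FPKM, Ror2 at 3.77 ± 0.29 and 4.47 ± 0.20, and Ryk at 24.8 ± 3.69 and 29.0 ± 4.05. Of 11 Wnt ligands 0 were called (median 0.03), with Wnt4 at 7.62 ± 1.0 and 6.26 ± 1.07 FPKM, Wnt5b at 0.98 ± 0.26 and 1.55 ± 0.21, and Wnt8a at 0.81 ± 0.49 and 1.45 ± 0.62. Among 17 other genes known as Wnt targets 1 was called higher, Wisp2 of the CCN family, at 1.16, 0.89 and 2.22 FPKM in the controls and 9.87, 5.23 and 5.64 in mutants (log2 difference 1.70, SE 0.25, adjusted p = 0.0442). Its limma adjusted p was 0.0590, 0.0677, 0.0622 and 0.232 without control 1, control 2, mutant 1 and mutant 2 in turn, and 0.0551 with a replicate block. It was 0.0563 after median-of-ratios scaling, 0.0512 with quantile normalization, 0.0638 with pseudocount 0.1, 0.0751 without trend and 0.133 with no filter. Without control 3 it was 0.00591, without mutant 3 0.0270, and in limma-voom on the recovered reads 0.0142. With library sex as a covariate the log2 difference of Wisp2 was 1.25. The median of that list was 0.10. Twist1, a transcription factor of mesenchyme, had 3.34 ± 1.02 FPKM in the controls against 8.07 ± 1.34 (adjusted p = 0.0744), and the receptor kinase gene Ephb2 had 1.46 ± 0.52 and 2.85 ± 0.38. Wisp2 is 1 of the 18 calls over all genes, and the number of calls in these 8 lists ranged from 0 to 3 over the alternatives.

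**Figure D5:**
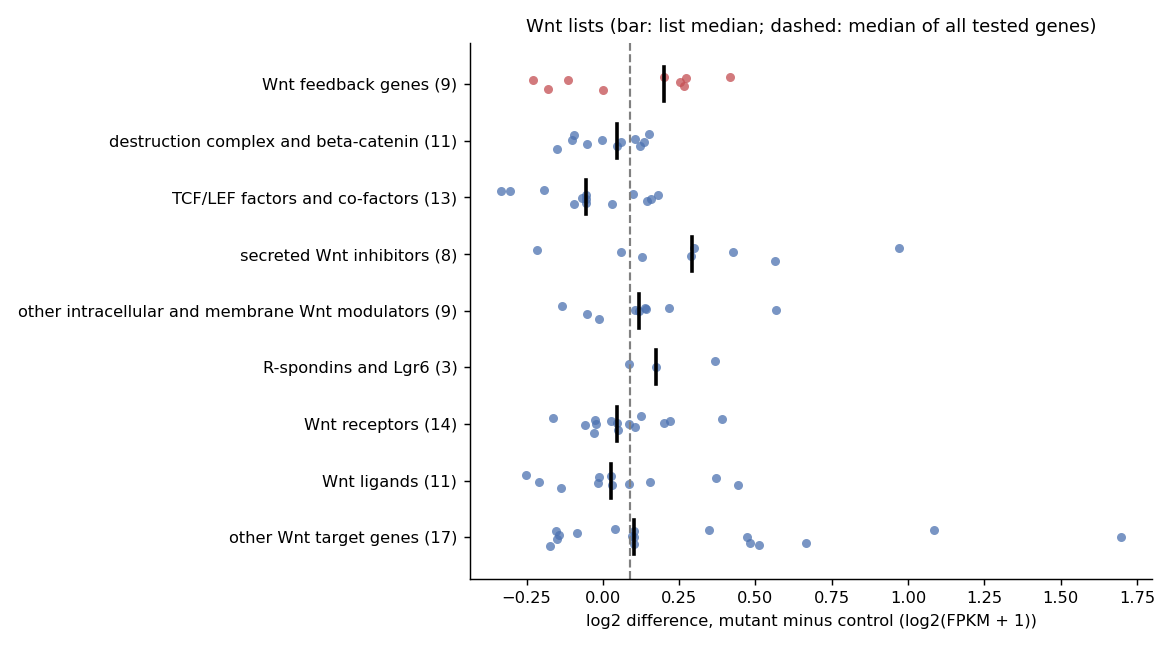
Log2 difference, mutant minus control, of each tested gene (points) in the Wnt feedback group (red) and the 8 other Wnt lists (blue), with the number tested in brackets, the list median (bars) and the median of all tested genes (dashed, 0.09). The feedback genes lie between -0.23 and 0.42, and Wisp2 at 1.70 and Twist1 at 1.08 are the points farthest to the right.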

How the data were processed

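The deposited table holds 1 FPKM value per gene and library, which the authors computed from stranded paired-end libraries of total RNA, per the labels' protocols. The submitters' processing notes name GSNAP, HTSeq and build mm10. No version, annotation or strand setting is given in the sources used here. Values were compared as log2(FPKM + 1) with limma (version 3.58.1, R 4.3.3) with a trend in the prior variance and no covariate, over the 12560 genes that averaged 1 FPKM or more. P-values are two-sided and Benjamini-Hochberg adjusted over all of these genes. FPKM values of a gene were whole multiples of a step that gave reads, for 23412 of 23412 genes (relative tolerance 3e-09), and the smallest solution was taken. Pairs of libraries of a group differed by more than sampling noise (chi-square divided by its degrees of freedom, 12.7 to 63.0). That they came from separate mice rests on the labels. The fits and the read recovery were tested on simulated data. Locations are from GENCODE M21 (GRCm38, the build named mm10). The genes and lists were chosen with earlier results of these data known. Of the other Wnt lists, each called gene and the 3 tested genes with the smallest p were named, with all 10 members, Ctnnb1, Hoxb6, Xist and the Y-linked genes in any case. Each result was recomputed under 16 other settings listed at the outset, with 2 more for all members and 8 for Sp5 added after seeing the data.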

Additional observations from a re-analysis of the deposited data

How the results depend on the processing

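None of the 9 tested Wnt feedback genes was called under any of the 18 alternatives; adjusted p-values ran from 0.146 upward. Wnt feedback genes called numbered 1 in limma-voom on all 21592 genes with no filter, which is Sp5, and 0 elsewhere. The median of the tested members was 0.20 and became -0.093 without control 2 and mutant 1 together; over single libraries left out it ran from 0.08 to 0.29. Signs reversed for Lgr4 (0.094 with library sex as covariate, 0.094 without the 2 controls high in Xist; -0.11 to 0.13 over single libraries left out, above 0 without control 1, control 2 or mutant 2), for Nkd1 (-0.061 with library sex as covariate, -0.061 without the controls high in Xist) and for Notum (-0.093 without control 2 and mutant 1). Genes called over the whole table numbered 18, and 9 with pseudocount 0.1, 4 with no filter, 32 with quantile normalization, 10 without trend, 190 with limma-voom, 301 with limma-voom and no filter, 11 with library sex as covariate, 249 without the controls high in Xist and 9 without control 2 and mutant 1; over single libraries left out they ran from 3 to 202 (202 without control 3, 3 without mutant 2). Calls in the other Wnt lists numbered 1, and 0 with pseudocount 0.1, no filter, the filter at mean FPKM 5, either scaling, no trend, library sex or without control 2 and mutant 1, 2 with limma-voom, 3 with limma-voom and no filter and 2 without the controls high in Xist; over single libraries left out they ran from 0 to 3. The cause of these shifts was not tested. With the replicate number as a block 68 genes were called, 0 of them members. Same-numbered libraries did not deviate together (correlations 0.00, 0.04 and -0.08 for numbers 1 to 3), so the numbers are not taken as pairs, and no library correlated best with its own number. Depth limits Sp5, at 0 to 4 reads per control library, and Notum, at 45 to 149 reads per library.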
